A study of Mus musculus with 8 samples.

Results

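The data described here set macrophages stimulated with IL4 or TGFb1 (2 libraries) against macrophages stimulated with TNFa, IL1b, MALP2 or CpG (4 libraries), agents that signal through NF-kB. A gene belonged to the description when the sides did not overlap, that is, when both IL4 and TGFb1 lay below all 4 NF-kB stimuli or both lay above all 4. Levels are FPKM, fragments scaled to transcript length and to the mapped fragments of the library. Of 36806 gene lines, 36328 had the status OK in all 6 libraries, and 13012 of these reached at least 1 FPKM in at least 1 of the 6 and were compared. Of the 13012 genes, 2604 (20%) were lower and 2704 (20.8%) were higher after IL4 and TGFb1 with no overlap. In 136 genes (1.05%) the lower level was separated by a gap of at least 2-fold, and in 14 genes (0.108%) the higher level was. The gap is the ratio of FPKM + 1 between the nearest libraries of the opposite sides, so it is the smallest fold that any pairing of the 2 and the 4 libraries gives. These counts were set by the choice of members and were not tested. Each agent has 1 library, and the 6 agents are not replicates of each other, so no p-value was computed. The 2-fold counts depend on which libraries enter: they were 209 lower and 156 higher without IL4, 344 and 364 without TGFb1, and 304 and 71 without IL1b. Those without overlap were 4057 and 4478 without IL4 and 4074 and 4567 without TGFb1.

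The cells were bone marrow-derived macrophages of C57BL/6 mice, grown from marrow in medium conditioned by L929 fibroblasts, and the cell label gives day 7 of differentiation. Stimulation lasted 4 h in every stimulated culture. The agents were IL4 (interleukin 4, 10 ng/ml) and TGFb1 (transforming growth factor beta 1, 1 ng/ml) on one side. On the other were TNFa (tumour necrosis factor, 10 ng/ml), IL1b (interleukin 1 beta, 10 ng/ml), MALP2 (a mycoplasmal lipopeptide, 1 ng/ml) and CpG (unmethylated CpG DNA, 100 nM). A library after IFNg (interferon gamma, 100 ng/ml) and an untreated library complete the series of 8. All cultures share the strain, the medium and the growth protocol.

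NF-kB is a family of dimeric transcription factors held in the cytoplasm by IkB proteins. Receptors for TNFa, IL1b and Toll-like receptor ligands such as MALP2 and CpG activate the IkB kinase complex, IkB proteins are degraded, and the dimers enter the nucleus and bind kappaB sites in the promoters and enhancers of cytokine, chemokine and survival genes. Several of the target genes encode IkB proteins and other inhibitors that end the signal. IL4 signals instead through the kinase-activated factor STAT6, and TGFb1 through receptor-phosphorylated SMAD proteins. In macrophages IL4 is known for inducing the alternative activation programme, and TGFb1 for limiting inflammatory gene expression.

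The absolute depth is unknown, because the files give FPKM and no counts. Judged by the low values, 1 read was worth 1.05 (IL4) and 1.09 (TGFb1) times as much FPKM as in the untreated library, against 1.26 (TNFa), 1.13 (IL1b), 1.44 (MALP2) and 1.09 (CpG) times and 2.04 times in the IFNg library. The macrophage genes Adgre1, Cd68 and Csf1r were at 561 FPKM or more in every library, while the lysozyme gene Lyz2 was listed at 0 in 5 libraries, where its status was not OK. Marker sums of erythroid, T and NK, mast and dendritic cells were at or below 10.5 FPKM in all 6 libraries, with Hbb-bt, Cd3e, Ncr1, Fcer1a and Mcpt4 at or below 0.0502 FPKM. Cd4 made up most of the T and NK sum, at 9.56 and 8.85 FPKM after IL4 and TGFb1 and 4.29 to 8.37 FPKM after the 4. That sum was higher after IL4 and TGFb1 with no overlap (10.1 and 10.5 against 6.10 to 9.68 FPKM). The dendritic sum was lower with no overlap (1.65 and 1.82 against 1.94 to 3.12 FPKM), and the erythroid and mast cell sums overlapped. Summed stromal markers (70.8 and 73.7 FPKM against 71.1 to 82.4 FPKM) and B cell markers (72.0 and 70.3 FPKM against 61.5 to 73.9 FPKM) overlapped between the sides. Untreated cells had 69.9 FPKM of the stromal sum but 240 FPKM of the B cell sum, with Ighm at 124 and Blnk at 104 FPKM. Summed neutrophil markers (11 genes) were 157 and 220.2 FPKM after IL4 and TGFb1 and 237 to 357 FPKM after the 4, against 269 FPKM untreated. S100a8 and S100a9 made up most of that sum, and S100a9 overlapped between the sides (65.2 and 90.2 against 74.8 to 121 FPKM). S100a8, Ngp, Camp, Elane and Ly6g were lower after IL4 and TGFb1 with no overlap, and the other members overlapped. Ly6g, Mpo, Elane and Retnlg were under 1 FPKM in all 6 libraries. The neutrophil sum runs in the direction of the lower genes, and its part in them was not tested. The untreated library stood apart from all 7 stimulated ones: of 12990 genes with status OK in all 8 libraries, every stimulated library exceeded the untreated one 2-fold or more in 194 and fell short of it 2-fold or more in 315.

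The promoters below were chosen because they hold kappaB matches, and belong to 3 genes of chemokines that neutrophils respond to and 3 genes of the NF-kB and IkB families. All 6 genes were lower after IL4 and TGFb1 by a gap of at least 2-fold. Each is the 250 bases before the annotated start in RefSeq's GRCm38.p6 table, read 5′ to 3′ on the gene's strand, with matches to the kappaB consensus on either strand in capitals. Cxcl1, Cxcl2 and Cxcl3 hold the same 11-base run, in which matches on both strands overlap. The 6 promoters were picked after the matches were known. The promoter of Tnfaip2, a marker gene with no match in this window, is shown for contrast.
Cxcl2 (chr5:90903649-90903898, plus strand): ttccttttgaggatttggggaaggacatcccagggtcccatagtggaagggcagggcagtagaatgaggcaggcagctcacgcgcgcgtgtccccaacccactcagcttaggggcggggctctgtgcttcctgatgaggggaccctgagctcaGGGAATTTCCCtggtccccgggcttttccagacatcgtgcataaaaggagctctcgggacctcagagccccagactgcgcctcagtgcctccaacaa
Cxcl1 (chr5:90890995-90891244, plus strand): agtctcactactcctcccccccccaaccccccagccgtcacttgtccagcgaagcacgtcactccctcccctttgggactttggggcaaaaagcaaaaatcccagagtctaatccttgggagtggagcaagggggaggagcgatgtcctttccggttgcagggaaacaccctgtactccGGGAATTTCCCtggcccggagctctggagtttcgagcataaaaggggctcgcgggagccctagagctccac
Cxcl3 (chr5:90785851-90786100, plus strand): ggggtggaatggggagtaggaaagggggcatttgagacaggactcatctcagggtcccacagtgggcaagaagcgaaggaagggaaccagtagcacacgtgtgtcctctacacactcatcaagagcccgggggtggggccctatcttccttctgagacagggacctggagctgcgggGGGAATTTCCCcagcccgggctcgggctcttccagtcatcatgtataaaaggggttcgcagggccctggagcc
Nfkb2 (chr19:46304487-46304736, plus strand): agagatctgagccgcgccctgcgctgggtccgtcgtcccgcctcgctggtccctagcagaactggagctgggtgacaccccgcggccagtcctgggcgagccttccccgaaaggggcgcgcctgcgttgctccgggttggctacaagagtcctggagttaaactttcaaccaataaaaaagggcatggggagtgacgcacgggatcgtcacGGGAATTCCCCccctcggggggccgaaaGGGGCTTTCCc
Nfkbia (chr12:55492648-55492897, minus strand): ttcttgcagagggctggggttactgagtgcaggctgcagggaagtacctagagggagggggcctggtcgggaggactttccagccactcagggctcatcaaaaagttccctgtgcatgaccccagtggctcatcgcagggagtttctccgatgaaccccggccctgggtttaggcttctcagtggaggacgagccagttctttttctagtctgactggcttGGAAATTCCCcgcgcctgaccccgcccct
Nfkbie (chr17:45555450-45555699, plus strand): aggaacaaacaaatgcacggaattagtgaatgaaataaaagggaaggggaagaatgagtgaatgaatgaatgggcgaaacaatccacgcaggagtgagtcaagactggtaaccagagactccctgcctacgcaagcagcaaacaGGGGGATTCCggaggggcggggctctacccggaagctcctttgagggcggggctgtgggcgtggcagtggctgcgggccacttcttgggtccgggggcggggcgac
Tnfaip2 (chr12:111442411-111442660, plus strand): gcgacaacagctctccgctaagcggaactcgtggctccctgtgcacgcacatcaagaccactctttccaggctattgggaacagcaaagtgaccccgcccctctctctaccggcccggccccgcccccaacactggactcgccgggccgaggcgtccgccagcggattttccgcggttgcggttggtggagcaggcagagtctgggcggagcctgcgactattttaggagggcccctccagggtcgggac

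A promoter was found for 110 of the 134 lower genes with a symbol, and 19 (17.3%) held a kappaB match. The share was 5.47% of the 8441 compared genes with a promoter and 4.46% of all 27025 promoters in the table. Among the lower genes that were at least 2-fold above untreated after all 4 NF-kB stimuli, 16 of 64 (25%) held a match. Among those at least 2-fold below untreated after both IL4 and TGFb1, 3 of 26 (11.5%) did. Of the 10 higher genes with a promoter, 1 held a match. The STAT6 element, TTC and GAA with 4 free bases between them, was in 8 of the 110 lower promoters (7.27%) and 0 of the 10 higher ones, against 5.83% of the compared genes. The SMAD box pair GTCTAGAC was in 2 and 0 of them, against 0.249%. Both strands were searched for every motif. The marker genes Tnfaip2, Traf1 and Ccl3 and the lower genes Il1b and Acod1 had no match of any of the 3 motifs in this window.

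**Figure D1:**
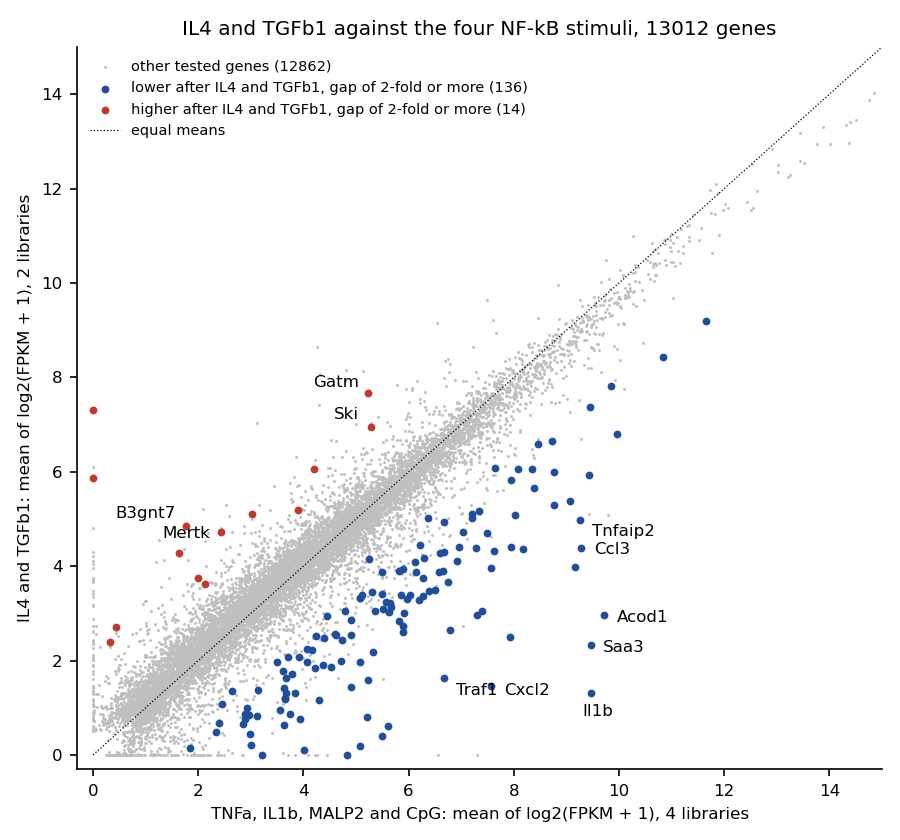
Each point is 1 of 13012 genes, with the mean of log2(FPKM + 1) over TNFa, IL1b, MALP2 and CpG on the x axis and over IL4 and TGFb1 on the y axis. The 136 lower genes (blue) lie well under the dotted line of equal means, up to Il1b at the lower right, while the 14 higher genes (red) lie above it.

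Tnfaip2, Traf1 and Ccl3 mark this contrast. Tnfaip2, a TNF-inducible gene (ENSMUSG00000021281; mm9 chromosome 12, 112680680 to 112693229), was at 28.3 and 33.1 FPKM after IL4 and TGFb1, against 509.5, 609.6, 576 and 774 FPKM after TNFa, IL1b, MALP2 and CpG. The authors' confidence bounds were 17.1 to 39.6 and 22.3 to 43.97 FPKM after IL4 and TGFb1, and the lowest bound after the 4 was 328 FPKM (TNFa). Untreated macrophages had 241 FPKM, so the gene lay far below untreated on the IL4 and TGFb1 side and above it on the other, with a gap of 14.96-fold. After IFNg it was at 1100 FPKM, above all 4. Traf1, an adaptor of TNF receptor signalling (ENSMUSG00000026875; mm9 chromosome 2, 34797270 to 34817292), was at 1.42 and 2.92 FPKM after IL4 and TGFb1, against 116, 45.99, 132 and 144 FPKM after TNFa, IL1b, MALP2 and CpG. With 9.99 FPKM untreated, it too was below untreated after IL4 and TGFb1 and above it after the 4, with a gap of 11.98-fold. Ccl3, a chemokine that attracts monocytes (ENSMUSG00000000982; mm9 chromosome 11, 83461346 to 83462857), was at 43.6 and 8.91 FPKM after IL4 and TGFb1, against 112, 217, 2394 and 2575 FPKM after TNFa, IL1b, MALP2 and CpG. Untreated cells had 134 FPKM of Ccl3, above the TNFa library. After IFNg, Traf1 (40.3 FPKM) and Ccl3 (65.6 FPKM) lay below all 4. The sides of Ccl3 did not overlap (gap 2.52-fold), but the bounds of IL4 (17.9 to 69.4 FPKM) and TNFa (49.01 to 174 FPKM) did. All 3 marker genes separated the sides, as the rule that chose the members requires, so this is not a test of the label. In bulk RNA fewer cells expressing a gene and less RNA per cell cannot be told apart.

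The widest gaps among lower genes belonged to the inflammatory genes Il1b, Acod1 and Cxcl2. The next, 18.1-fold, was that of Gm22208, a small nuclear RNA gene described below. Il1b, which encodes interleukin 1 beta itself, was at 2.004 and 1.08 FPKM after IL4 and TGFb1, against 157, 161, 3074 and 3135 FPKM after TNFa, IL1b, MALP2 and CpG. MALP2 and CpG stood far above TNFa and IL1b, and the lowest of the 4 was 52.6-fold above the higher of IL4 and TGFb1. Acod1, the enzyme that makes itaconate, was at 4.16 and 10.7 FPKM after IL4 and TGFb1, against 998, 308, 1393 and 1187 FPKM after TNFa, IL1b, MALP2 and CpG. IFNg lay above all 4 in Acod1, at 8.55 above untreated on the log2(FPKM + 1) scale, against at most 7.55 after them. Cxcl2, a chemokine for neutrophils whose promoter is printed above, was at 1.11 and 2.54 FPKM after IL4 and TGFb1, against 75.8, 93.9, 538 and 332 FPKM after TNFa, IL1b, MALP2 and CpG. Untreated cells had 6.41 FPKM of Acod1 and 2.05 of Cxcl2, between the IL4 and TGFb1 libraries in both. They had 3.94 FPKM of Il1b, above both IL4 and TGFb1, which differed from untreated by -0.72 and -1.25 on the log2(FPKM + 1) scale. Socs3, a feedback inhibitor of cytokine receptor signalling, was at 4.23 and 5.09 FPKM after IL4 and TGFb1, against 99.4, 74.2, 603 and 783 FPKM after TNFa, IL1b, MALP2 and CpG. Clec4e, a lectin receptor for mycobacterial glycolipid, was at 8.53 and 25.2 FPKM after IL4 and TGFb1, against 979.9, 308, 496 and 699 FPKM after TNFa, IL1b, MALP2 and CpG. In both, the 4 NF-kB stimuli lay above every other library except that IFNg gave 304 FPKM of Socs3. Saa3, an acute phase protein, was at 3.56 and 4.46 FPKM after IL4 and TGFb1, against 188, 48.5, 4805 and 5458 FPKM after TNFa, IL1b, MALP2 and CpG, with 10.2 FPKM untreated. Saa3 spread widely within the 4, lowest after IL1b and highest after CpG. Rassf4, a RAS-association domain protein, was at 14.9 and 14.3 FPKM after IL4 and TGFb1, against 123, 126, 283 and 280.4 FPKM after TNFa, IL1b, MALP2 and CpG, with 261 FPKM untreated. Here MALP2 and CpG were near untreated, TNFa and IL1b lower, and IL4 and TGFb1 lowest. Over the 136 genes the median gap was 2.77-fold, 29 genes had a gap of at least 4-fold and 10 of at least 8-fold. In 91 of the 136 the authors' bounds did not overlap between the sides either.

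**Figure D2:**
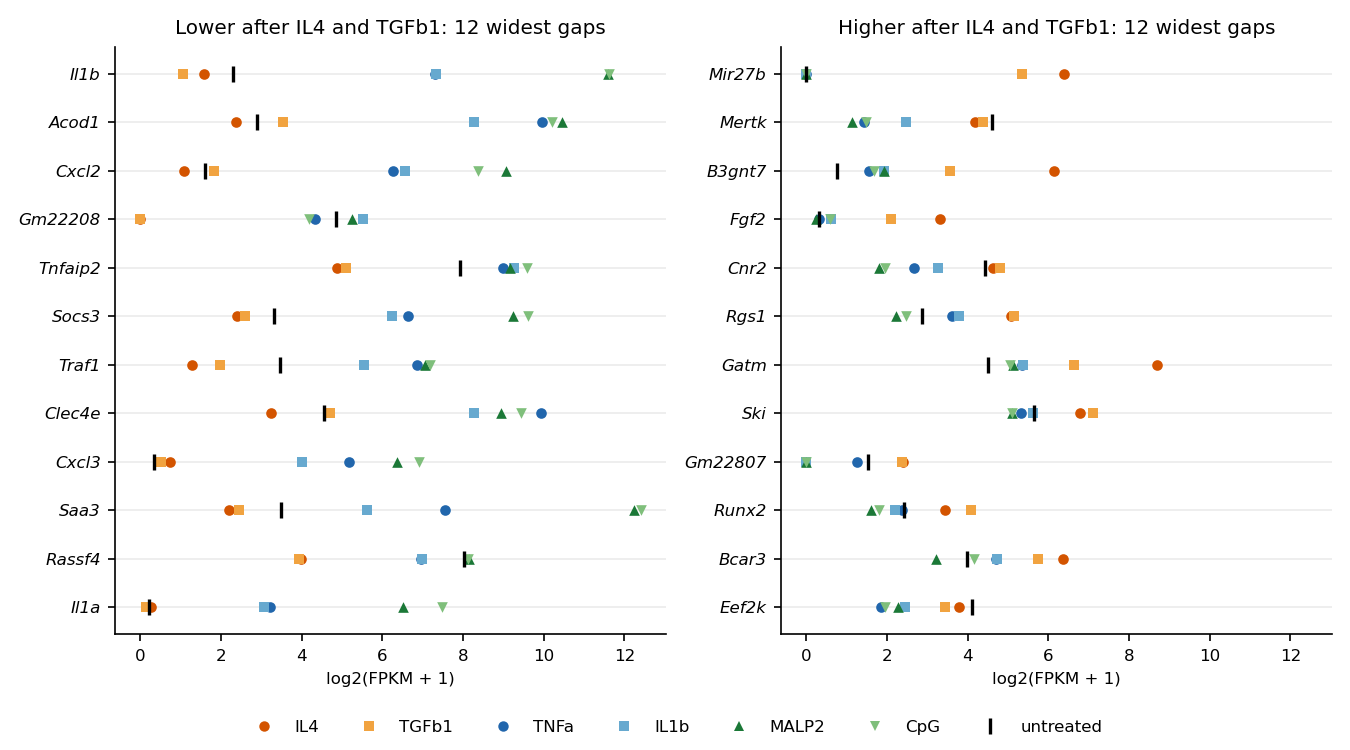
The 12 lower and the 12 higher genes with a symbol and the widest gaps, each row a gene and each mark 1 library on a log2(FPKM + 1) axis. IL4 and TGFb1 (orange) sit left of the 4 NF-kB stimuli (blue and green) in the left panel and right of them in the right panel, and the black bar of the untreated library falls on either side or in the gap.

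The NF-kB and IkB genes themselves separated the sides. Of 11 members, all compared, 9 were lower with no overlap after IL4 and TGFb1 and 0 higher, against 20% and 20.8% of all compared genes, and 6 passed the 2-fold gap against 1.05%. The median difference of the list, IL4 and TGFb1 minus the 4, was -2.54 on the log2(FPKM + 1) scale, against 0.04 over all compared genes. Nfkbia, the inhibitor IkB alpha, was at 52.6 and 75.6 FPKM after IL4 and TGFb1, against 312, 271, 637 and 667 FPKM after TNFa, IL1b, MALP2 and CpG. Nfkbie, the inhibitor IkB epsilon, was at 7.84 and 10.9 FPKM after IL4 and TGFb1, against 92.9, 90.2, 60.99 and 67.2 FPKM after TNFa, IL1b, MALP2 and CpG. In Nfkbie TNFa and IL1b were above MALP2 and CpG, and in Nfkbia the reverse. Relb, a transactivating subunit of the noncanonical pathway, was at 6.93 and 8.64 FPKM after IL4 and TGFb1, against 44.5, 46.3, 52.2 and 56.5 FPKM after TNFa, IL1b, MALP2 and CpG. Nfkb2, the precursor of its partner p52, was at 19.4 and 21.2 FPKM after IL4 and TGFb1, against 122, 98.6, 129.5 and 145 FPKM after TNFa, IL1b, MALP2 and CpG. The Nfkb2 promoter window printed above holds 3 kappaB matches, of which 2 overlap. Bcl3, a nuclear IkB protein, was at 11.5 and 16.5 FPKM after IL4 and TGFb1, against 53.4, 70.9, 112 and 182 FPKM after TNFa, IL1b, MALP2 and CpG. Untreated cells had 53.5 FPKM of Nfkbia and 9.14 of Nfkbie, between IL4 and TGFb1. They had 16.9 FPKM of Relb, 30.1 of Nfkb2 and 32.04 of Bcl3, inside the gap. Within the 4 stimuli, Nfkbie was highest after TNFa and the others of these 5 genes after CpG. IFNg was higher still in Nfkbie, at 3.78 above untreated on the log2(FPKM + 1) scale, against 3.21 after TNFa. Nfkbib, the inhibitor IkB beta, was at 20.6 and 20.8 FPKM after IL4 and TGFb1 and between 59.5 (TNFa) and 89.1 FPKM (MALP2) after the 4. Rela, the main transactivating subunit, was lower by a smaller gap, at 32.4 and 38.9 FPKM after IL4 and TGFb1 and between 67.3 (IL1b) and 74.6 FPKM (CpG) after the 4. Nfkbid and Nfkbiz, nuclear IkB proteins, were lower too, and Nfkbiz reached 119.8 and 192 FPKM after MALP2 and CpG, against 0.542 and 5.01 FPKM after IL4 and TGFb1. Rel and Nfkb1 overlapped. Nfkb1, the precursor of p50, was at 270.3 and 68.1 FPKM after IL4 and TGFb1, against 206, 154, 271 and 328 FPKM after TNFa, IL1b, MALP2 and CpG, so IL4 lay among the 4 and TGFb1 below them.

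Among 29 compared feedback and adaptor genes of the pathway, 15 (51.7%, against 20% of all compared genes) were lower with no overlap. By 2-fold 6 were lower (against 1.05%), and 1 was higher with no overlap (3.45%, against 20.8%). Tnfaip3, the ubiquitin-editing inhibitor A20, was at 17.97 and 14.5 FPKM after IL4 and TGFb1, against 85.7, 61.9, 165 and 233 FPKM after TNFa, IL1b, MALP2 and CpG. Tnip3, a partner of A20, was at 11.2 and 6.997 FPKM after IL4 and TGFb1 and between 38.9 (TNFa) and 104 FPKM (CpG) after the 4. For both, untreated cells were lower than all 6, at 6.66 and 4.06 FPKM. Ikbke, an IkB kinase-related enzyme of interferon induction, was at 26.1 and 24.2 FPKM after IL4 and TGFb1, against 164, 104, 249.8 and 245 FPKM after TNFa, IL1b, MALP2 and CpG, with 62.1 FPKM untreated. Birc3, a ubiquitin ligase of TNF receptor complexes, was at 14.3 and 23.7 FPKM after IL4 and TGFb1 and between 74.9 (IL1b) and 106 FPKM (CpG) after the 4. Myd88, the adaptor of IL1 and Toll-like receptors, was lower by under 2-fold, at 51.8 and 47.5 FPKM after IL4 and TGFb1 and between 98.97 (IL1b) and 165 FPKM (CpG) after the 4. The kinase gene Chuk was the 1 higher member, at 18.6 and 17.9 FPKM after IL4 and TGFb1 and between 10.2 (MALP2) and 16.8 FPKM (IL1b) after the 4. Genes of the receptor-proximal machinery such as Traf6, Irak1, Irak4, Ripk1 and Cyld overlapped. Of 21 MAP kinase phosphatases and RNA-decay regulators, 9 were lower (42.9%, against 20%) and 1 higher (4.76%, against 20.8%). Dusp1, a phosphatase of stress-activated kinases, was at 5.86 and 12.9 FPKM after IL4 and TGFb1, against 61.5, 44.3, 73.1 and 139 FPKM after TNFa, IL1b, MALP2 and CpG. Pde4b, a phosphodiesterase of cyclic AMP, was at 10.3 and 3.60 FPKM after IL4 and TGFb1 and between 36 (IL1b) and 89.6 FPKM (CpG) after the 4. Dusp6, a phosphatase of ERK, was the higher one, at 44.6 and 48.1 FPKM after IL4 and TGFb1 and between 12.9 (CpG) and 38.7 FPKM (TNFa) after the 4.

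Ligand genes followed. Of 23 compared chemokines, 15 were lower (65.2%, against 20% of all compared genes) and 0 higher (against 20.8%). By at least 2-fold 7 were lower (against 1.05%). Cxcl3 and Cxcl1, neighbours of Cxcl2 on chromosome 5 and neutrophil attractants like it, had the widest gaps of the list after Cxcl2. Cxcl3 was at 0.658 and 0.430 FPKM after IL4 and TGFb1, against 35.3, 15.02, 81.7 and 119 FPKM after TNFa, IL1b, MALP2 and CpG. Cxcl1 was at 0.227 and 0.425 FPKM after IL4 and TGFb1, against 7.35, 30.5, 152 and 98.7 FPKM after TNFa, IL1b, MALP2 and CpG. IL4 and TGFb1 stayed under 1 FPKM for both, and the order within the 4 differed, with IL1b lowest for Cxcl3 and TNFa lowest for Cxcl1. Ccl9, abundant in every library, was at 828 and 412 FPKM after IL4 and TGFb1, against 3325, 2039, 4042 and 3898 FPKM after TNFa, IL1b, MALP2 and CpG. Ccl5, a T cell and monocyte attractant, was at 6.31 and 8.40 FPKM after IL4 and TGFb1, against 128, 19.9, 370.3 and 795 FPKM after TNFa, IL1b, MALP2 and CpG. IL1b was the lowest of the 4 in both. Cxcl10, an interferon-inducible chemokine, was at 8.93 and 38.6 FPKM after IL4 and TGFb1 and between 101 (MALP2) and 324 FPKM (TNFa) after the 4, while IFNg gave 7589 FPKM. The monocyte attractants Ccl2, Ccl7 and Ccl12 overlapped, with IL4 above all 4 and TGFb1 below all 4. Ccl2 was at 687 and 49.8 FPKM after IL4 and TGFb1, against 113, 168, 199.8 and 187 FPKM after TNFa, IL1b, MALP2 and CpG, and its untreated level was 9.09 FPKM. Of 25 compared cytokines and growth factors, 12 were lower (48%, against 20%) and 2 higher (8%, against 20.8%). Tnf itself was at 9.41 and 39.1 FPKM after IL4 and TGFb1, against 114, 185, 668 and 498 FPKM after TNFa, IL1b, MALP2 and CpG. Il1a was at 0.202 and 0.0943 FPKM after IL4 and TGFb1, against 8.35, 7.36, 90.4 and 178 FPKM after TNFa, IL1b, MALP2 and CpG. MALP2 and CpG were above TNFa and IL1b in both. Il12b and Il6, cytokines that instruct lymphocytes, were lower with narrow gaps on this scale, since the lowest of the 4 was under 1 FPKM. Il12b was at 0.0409 and 0.105 FPKM after IL4 and TGFb1 and between 0.471 (IL1b) and 59.9 FPKM (CpG) after the 4. Il6 was at 0.0343 and 0.0356 FPKM after IL4 and TGFb1 and between 0.164 (TNFa) and 8.82 FPKM (MALP2) after the 4. Il1rn, the IL1 receptor antagonist, was at 88.6 and 118 FPKM after IL4 and TGFb1 and between 219.5 (IL1b) and 1413 FPKM (CpG) after the 4. Pdgfa, a growth factor for mesenchymal cells, was the higher member with the wider gap, at 115 and 168 FPKM after IL4 and TGFb1, against 58.6, 63.9, 59.5 and 60.8 FPKM after TNFa, IL1b, MALP2 and CpG.

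Receptors of the agents were on both sides. Of 16 compared receptor genes, 8 were lower (50%, against 20% of all compared genes) and 1 was higher (6.25%, against 20.8%). By 2-fold 3 were lower (against 1.05%). Tlr2, the receptor of MALP2, was at 10.4 and 133 FPKM after IL4 and TGFb1, against 454, 408, 408 and 475 FPKM after TNFa, IL1b, MALP2 and CpG, with 71.9 FPKM untreated. IL4 was far below TGFb1, and untreated lay between them. Cd14, a co-receptor of Toll-like receptors, was at 288 and 409 FPKM after IL4 and TGFb1, against 1635, 1453, 2324 and 1978 FPKM after TNFa, IL1b, MALP2 and CpG, with 425 FPKM untreated. Tnfrsf1b, the second TNF receptor, was at 71.1 and 174 FPKM after IL4 and TGFb1, against 863, 458, 1584 and 1556 FPKM after TNFa, IL1b, MALP2 and CpG, with 244 FPKM untreated. Tnfrsf1a, Il2rg, Il13ra1, Tlr1 and Tlr6 were lower by under 2-fold. Tlr9, the receptor of CpG, overlapped at 6.16 and 11.7 FPKM after IL4 and TGFb1 and between 5.64 (TNFa) and 11.2 FPKM (MALP2) after the 4, and every stimulated library was below the 51.7 FPKM of untreated cells. Il4ra, the IL4 receptor chain, overlapped at 302 and 141 FPKM after IL4 and TGFb1, against 113, 91.1, 387 and 803 FPKM after TNFa, IL1b, MALP2 and CpG. Tgfbr1, the signalling receptor of TGFb1, was the higher one, at 29.2 and 50.4 FPKM after IL4 and TGFb1, against 12.4, 16.2, 3.38 and 5.35 FPKM after TNFa, IL1b, MALP2 and CpG, with 11.4 FPKM untreated. Il1r1, Il1r2, Il1rap, Tgfbr2 and Cd36 overlapped. Of 23 Toll-like receptor signalling genes, 10 were lower (43.5%, against 20%) and 0 higher (against 20.8%).

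Inflammatory enzymes and receptors had the largest share of lower members, 27 of 32 (84.4%, against 20% of all compared genes). Of the 32, 12 were lower past 2-fold (against 1.05%) and 1 was higher (3.13%, against 20.8%). Sod2, the mitochondrial superoxide dismutase, was at 19.3 and 20.9 FPKM after IL4 and TGFb1, against 230.4, 105, 394 and 383 FPKM after TNFa, IL1b, MALP2 and CpG. Nlrp3, the sensor of the inflammasome that activates interleukin 1 beta, was at 39.8 and 62.1 FPKM after IL4 and TGFb1, against 277, 283, 458 and 333 FPKM after TNFa, IL1b, MALP2 and CpG. Untreated cells had 18.4 FPKM of Sod2 and 35.5 of Nlrp3, under the IL4 level. Gpr84, a receptor for medium-chain fatty acids, was at 32.6 and 111 FPKM after IL4 and TGFb1, against 725, 439, 938 and 740.3 FPKM after TNFa, IL1b, MALP2 and CpG, with 3.94 FPKM untreated. Gpr84 was thus above untreated in all 6 libraries, least after IL4. Fpr1, a receptor for bacterial formyl peptides, and Hcar2, the nicotinic acid receptor, were under 1 FPKM after both IL4 and TGFb1. Fpr1 was at 0.0539 and 0.112 FPKM after IL4 and TGFb1 and between 2.33 (IL1b) and 55.03 FPKM (MALP2) after the 4. Hcar2 was at 0.772 and 0.733 FPKM after IL4 and TGFb1 and between 10.6 (IL1b) and 129.7 FPKM (CpG) after the 4. Plau, the urokinase gene, was the higher member, at 664 and 482 FPKM after IL4 and TGFb1, against 189.9, 305, 29.6 and 41.8 FPKM after TNFa, IL1b, MALP2 and CpG, with 28.8 FPKM in untreated cells, near MALP2. Of 19 costimulatory and adhesion molecules, 11 were lower (57.9%, against 20%), 5 of them by 2-fold (against 1.05%), and 1 was higher (5.26%, against 20.8%). Icam1, a ligand of leukocyte integrins, was at 66.9 and 64.95 FPKM after IL4 and TGFb1, against 329, 307, 327 and 332 FPKM after TNFa, IL1b, MALP2 and CpG. The 4 lay close together in Icam1, and the authors' bounds overlapped between the sides. IFNg lay above all 4 in Icam1, at 4.18 above untreated on the log2(FPKM + 1) scale, against at most 2.56 after them. Fas, the death receptor, was at 3.73 and 2.27 FPKM after IL4 and TGFb1 and between 18.7 (IL1b) and 46.4 FPKM (CpG) after the 4. Vcam1, an endothelial and macrophage adhesion molecule, was at 0.390 and 0.324 FPKM after IL4 and TGFb1 and between 3.58 (MALP2) and 20.4 FPKM (TNFa) after the 4. Cd40, Cd86, Cd80 and Cd274 overlapped.

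Among 31 early response transcription factors, 14 were lower (45.2%, against 20% of all compared genes) and 2 higher (6.45%, against 20.8%). The gaps were narrow. Fosl1, a subunit of AP-1, and Hivep2, a zinc finger protein that binds kappaB-like sites, passed 2-fold. Fosl1 was at 0.974 and 0.669 FPKM after IL4 and TGFb1 and between 5.28 (IL1b) and 8.69 FPKM (TNFa) after the 4. Hivep2 was at 1.27 and 1.97 FPKM after IL4 and TGFb1 and between 5.11 (IL1b) and 14.1 FPKM (CpG) after the 4. Junb, Cebpb, Irf1, Maff and Fos were lower by under 2-fold, whereas Jun, Egr1, Myc and Atf3 overlapped. Genes of the type I interferon response had 32 of 39 lower members (82.1%, against 20%) and 0 higher (against 20.8%), but only Ifi205 and Isg15 passed 2-fold. Isg15, a ubiquitin-like modifier, was at 23.9 and 40.9 FPKM after IL4 and TGFb1, against 189, 86.5, 147 and 195 FPKM after TNFa, IL1b, MALP2 and CpG, with 111 FPKM untreated and 696 FPKM after IFNg. The untreated library lay among the 4 for Isg15. The median of the list, IL4 and TGFb1 minus the 4, was -1.30, against 0.04 over all compared genes. Relative to untreated, the log2 medians of the list were -1.65 after IL4 and -1.02 after TGFb1. After the 4 they were near untreated, at 0.19 (TNFa), -0.38 (IL1b), -0.32 (MALP2) and 0.25 (CpG). Antigen presentation genes had 13 of 19 lower (68.4%, against 20%) and 0 higher (against 20.8%), all by under 2-fold. The peptide transporter Tap1 led them, at 27 and 26.4 FPKM after IL4 and TGFb1. It was between 48.4 (IL1b) and 94.9 FPKM (CpG) after the 4, with 82.2 FPKM untreated.

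Of 24 glycolysis and hypoxia genes, 11 were lower (45.8%, against 20% of all compared genes) and 0 higher (against 20.8%), all by under 2-fold. Slc2a1, the main glucose transporter, was at 69.1 and 93.9 FPKM after IL4 and TGFb1, against 332, 156, 499 and 449 FPKM after TNFa, IL1b, MALP2 and CpG, with 17.3 FPKM untreated, so all 6 were above untreated. Among 14 LXR and cholesterol efflux genes, 6 were lower (42.9%, against 20%) and 1 higher (7.14%, against 20.8%). Nr1h3, which encodes LXR alpha, passed 2-fold at 4.29 and 12.03 FPKM after IL4 and TGFb1. It was between 28.3 (IL1b) and 47.6 FPKM (TNFa) after the 4. Arl4c, an LXR target, was higher at 76.6 and 81.2 FPKM after IL4 and TGFb1 and between 12.9 (MALP2) and 46.4 FPKM (IL1b) after the 4. Phagocytic and scavenger receptors had 7 lower of 21 (33.3%, against 20%) and 1 higher, Mertk (4.76%, against 20.8%). Msr1, the class A scavenger receptor, was lower, at 46.6 and 83.2 FPKM after IL4 and TGFb1. It was between 134 (IL1b) and 190.3 FPKM (TNFa) after the 4. Sterol and fatty acid synthesis genes (2 lower and 1 higher of 21) and cell cycle genes (5 lower and 1 higher of 33) had shares below the 20% and 20.8% of all compared genes in both directions.

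**Figure D3:**
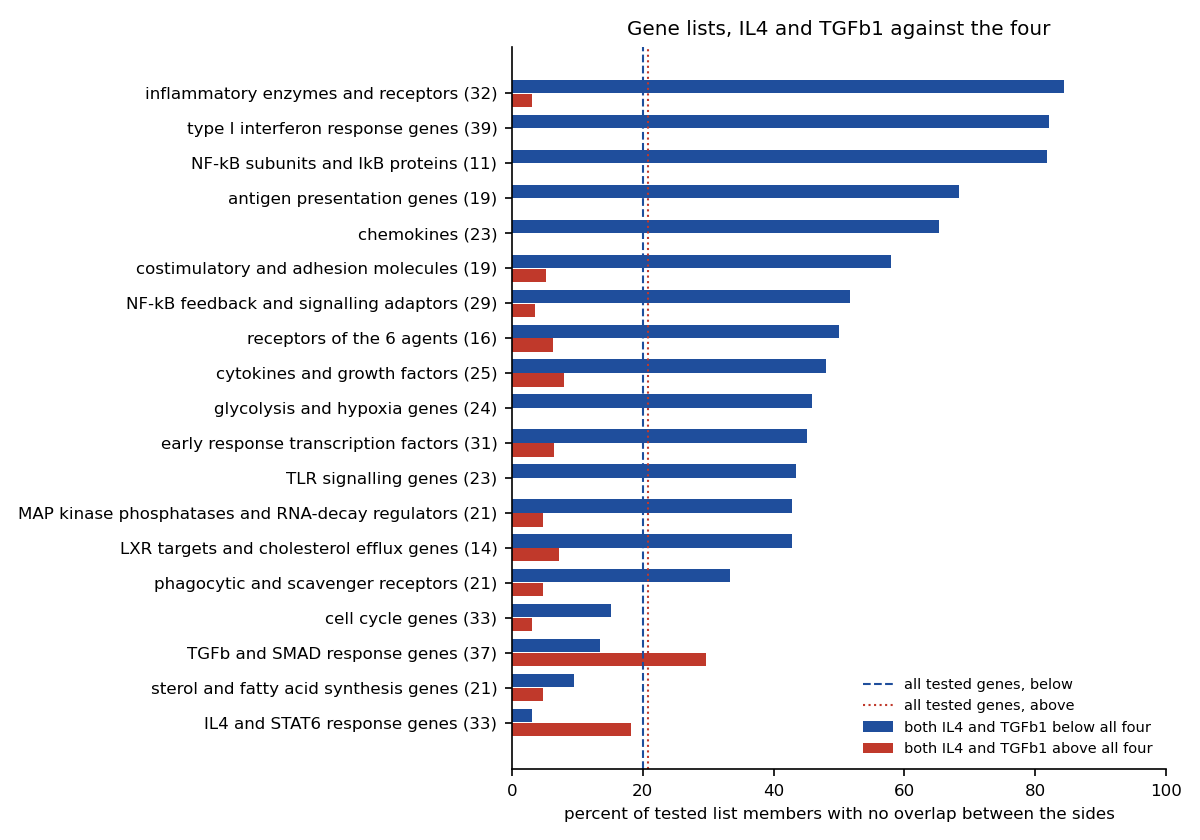
Bars give the percent of compared members of each gene list in which IL4 and TGFb1 both lay below (blue) or both above (red) all 4 NF-kB stimuli, with the number compared in parentheses. Dashed and dotted lines mark 20% and 20.8%, the shares among all compared genes, which blue bars exceed in 15 of the 19 lists and the red bar in 1.

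Of the 136 lower genes, 48 were on one of the 19 lists, 86 others had a symbol and 2 had none. Those off the lists, from which the genes beyond the widest gaps were picked after their values were seen, included signalling enzymes, guanosine triphosphatases and their regulators, and innate sensors. Marcksl1, a regulator of the actin cortex, was at 22.1 and 75.02 FPKM after IL4 and TGFb1, against 528, 481, 643 and 509.7 FPKM after TNFa, IL1b, MALP2 and CpG. Jdp2, a repressor that dimerises with Jun, was at 8.42 and 12.4 FPKM after IL4 and TGFb1 and between 73.5 (CpG) and 138 FPKM (TNFa) after the 4. Cdc42ep2, an effector of the small GTPase CDC42, was at 4.36 and 0.663 FPKM after IL4 and TGFb1, against 26.9, 25.7, 56.3 and 46.04 FPKM after TNFa, IL1b, MALP2 and CpG. IL4 was well above TGFb1 in Cdc42ep2, an order seen in a minority of the lower genes. Rab20 and Rab11fip1, of vesicle traffic, had gaps of 4.87 and 3.90-fold. Nod2, the sensor of muramyl dipeptide, was at 0.953 and 1.64 FPKM after IL4 and TGFb1 and between 10.7 (TNFa) and 13.4 FPKM (MALP2) after the 4. Mefv, the pyrin inflammasome gene, was at 0.556 and 0.530 FPKM after IL4 and TGFb1 and between 5.64 (IL1b) and 19.1 FPKM (CpG) after the 4. Pilra, Pilrb1 and Pilrb2, paired immunoglobulin-like receptors in a cluster of related genes, were all lower, with values that may share reads. Hspa1a and Hspa1b, near-identical heat shock genes, were at or below 1.17 FPKM after IL4 and TGFb1, against 3.60 to 9.29 FPKM after the 4, and cannot be told apart. Nfe2l2, the oxidative stress factor NRF2, was at 33.7 and 90.9 FPKM after IL4 and TGFb1 and between 218 (MALP2) and 268 FPKM (TNFa) after the 4. Its target Txnrd1, a thioredoxin reductase, was at 54.2 and 78.4 FPKM after IL4 and TGFb1 and between 189 (IL1b) and 381 FPKM (TNFa) after the 4. Mapkapk2, a kinase downstream of p38, was at 98.5 and 100.5 FPKM after IL4 and TGFb1 and between 266 (IL1b) and 611 FPKM (CpG) after the 4. Of the 136, 131 were protein-coding. Gm22208, a small nuclear RNA gene of 0.11 kb, was listed at 0 after IL4, TGFb1 and IFNg, and poly(A) libraries measure such RNAs poorly. After the 4 it was at 17.1 to 44.8 FPKM, with the authors' lower bound at 0 in each. Their Cuffdiff test called no stimulated library different from untreated (q-values of 0.389 or more). Among the 150 genes past the 2-fold gap in either direction, 45 share their assembled locus with another gene.

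Higher genes were few. Mertk, the receptor kinase by which macrophages take up apoptotic cells (ENSMUSG00000014361; mm9 chromosome 2, 128524692 to 128628630), was at 17.2 and 19.8 FPKM after IL4 and TGFb1, against 1.71, 4.56, 1.18 and 1.80 FPKM after TNFa, IL1b, MALP2 and CpG. Untreated cells had 23.1 FPKM of Mertk, so IL4 and TGFb1 stayed near untreated and the 4 were lower. Cnr2, a cannabinoid receptor of leukocytes, and Eef2k, the kinase that slows translation elongation, also had the 4 below untreated. Cnr2 was at 23.7 and 27.1 FPKM after IL4 and TGFb1, against 5.39, 8.65, 2.51 and 2.85 FPKM after TNFa, IL1b, MALP2 and CpG, with 20.7 FPKM untreated. Eef2k was at 12.8 and 9.89 FPKM after IL4 and TGFb1 and between 2.62 (TNFa) and 4.42 FPKM (IL1b) after the 4, with 16.4 FPKM untreated. Ski, a repressor of SMAD signalling, was at 109 and 137 FPKM after IL4 and TGFb1, against 39.3, 47.9, 33.1 and 33.3 FPKM after TNFa, IL1b, MALP2 and CpG, with 48.8 FPKM untreated. Rgs1, which ends G protein signalling, was at 32.8 and 34.5 FPKM after IL4 and TGFb1, against 11.2, 12.7, 3.70 and 4.58 FPKM after TNFa, IL1b, MALP2 and CpG, with 6.31 FPKM untreated. In Ski and Rgs1 both IL4 and TGFb1 were above untreated, and IFNg was high too, at 93.4 and 59.4 FPKM. B3gnt7, a glycosyltransferase, Fgf2, a fibroblast growth factor, and Gatm, an enzyme of creatine synthesis, were highest after IL4. B3gnt7 was at 69.5 and 10.8 FPKM after IL4 and TGFb1, against 1.94, 2.80, 2.81 and 2.20 FPKM after TNFa, IL1b, MALP2 and CpG. Fgf2 was at 8.96 and 3.29 FPKM after IL4 and TGFb1, against 0.246, 0.518, 0.184 and 0.493 FPKM after TNFa, IL1b, MALP2 and CpG. Gatm was at 413 and 98.6 FPKM after IL4 and TGFb1, against 39.6, 40.2, 34.1 and 32.1 FPKM after TNFa, IL1b, MALP2 and CpG. In B3gnt7 and Gatm IL4 exceeded TGFb1 by more than the gap between the sides. Runx2, a transcription factor of bone, was at 9.86 and 15.8 FPKM after IL4 and TGFb1 and between 2.04 (MALP2) and 4.21 FPKM (TNFa) after the 4. Bcar3, an adaptor of integrin signalling, was at 81.5 and 53.04 FPKM after IL4 and TGFb1 and between 8.25 (MALP2) and 25.7 FPKM (IL1b) after the 4. Rasal3, a RAS inhibitor of leukocytes, was at 37.03 and 34.5 FPKM after IL4 and TGFb1 and between 11.6 (CpG) and 16.7 FPKM (IL1b) after the 4. The other 3 of the 14 were Gm22807, a small nucleolar RNA gene, Mir27b, a microRNA gene, and ENSMUSG00000087740, a line of 0.081 kb with no symbol. Mir27b was listed at 82.3 and 39.9 FPKM after IL4 and TGFb1 and at 0 in the other libraries, over an assembled locus of 532 kb, and its untreated status was not OK. Of the 14, 11 were protein-coding, the median gap on the FPKM + 1 scale was 2.44-fold, and the authors' bounds did not overlap in 7.

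Of 33 compared IL4 and STAT6 response genes, 6 were higher with no overlap (18.2%, against 20.8% of all compared genes), 1 was lower (3.03%, against 20%) and 26 overlapped, and 0 passed 2-fold. The 26 include genes high after IL4 alone. Arg1, the arginase gene, was at 1766 and 8.72 FPKM after IL4 and TGFb1, against 4.53, 4.79, 18.6 and 8.21 FPKM after TNFa, IL1b, MALP2 and CpG. Cish, a feedback inhibitor induced through STAT factors, was at 72.9 and 0.583 FPKM after IL4 and TGFb1 and between 1.58 (IL1b) and 5.25 FPKM (CpG) after the 4. TGFb1 lay with or below the 4 in both. Itgb3, the integrin beta 3 chain, had the widest gap of the 6, at 98.6 and 12.9 FPKM after IL4 and TGFb1, against 3.85, 6.36, 1.79 and 2.37 FPKM after TNFa, IL1b, MALP2 and CpG. Of 37 compared TGFb and SMAD response genes, 11 were higher (29.7%, against 20.8% of all compared genes), 2 of them by 2-fold, and 5 were lower (13.5%, against 20%). Besides Ski, Rgs1 and Tgfbr1, Pmepa1, a SMAD-induced inhibitor, was higher at 55.4 and 139 FPKM after IL4 and TGFb1, against 43.2, 46.04, 30.7 and 36.5 FPKM after TNFa, IL1b, MALP2 and CpG. Untreated cells had 1.47 FPKM of Pmepa1, far under all 6. Smad7, the inhibitory SMAD, overlapped at 5.63 and 15.1 FPKM after IL4 and TGFb1, against 7.21, 4.15, 2.90 and 4.23 FPKM after TNFa, IL1b, MALP2 and CpG. Ccl22, a chemokine that IL4 is known to induce, was the lower member of the IL4 list, at 2.16 and 1.98 FPKM after IL4 and TGFb1 and between 4.08 (IL1b) and 36.5 FPKM (TNFa) after the 4.

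The untreated library entered the choice of members only through the factors that join the tables. All comparisons with untreated share its 1 library. The 6 libraries that chose the members enter them too, and a gap of 2-fold by itself places a side away from untreated more often than in all genes, so the shares below, the authors' calls included, are descriptions with nothing read from the background beside them. In 76 of the 136 lower genes (against 4.35% of all compared genes) all 4 NF-kB stimuli were at least 2-fold above untreated on the FPKM + 1 scale. In 34 of the 136 (against 6.05%) IL4 and TGFb1 were both at least 2-fold below it, 3 genes met both conditions and 29 met neither. Untreated lay inside the gap in 68 genes, at or below the higher of IL4 and TGFb1 in 50, and at or above the lowest of the 4 in 18. Il1b, Acod1, Cxcl2, Socs3, Sod2, Nfkbia and Tnfaip3 were among the 76. The 34 genes included Ccl3, Ccl5, Ccrl2, Ikbke, Isg15, Nod1, Casp4, Nfe2l2, Mapkapk2, C3, Rassf4, Arl5c and Gas7. Gas7, a growth arrest gene of the cytoskeleton, was at 33.2 and 33.5 FPKM after IL4 and TGFb1, against 140.1, 84.4, 171 and 232 FPKM after TNFa, IL1b, MALP2 and CpG, with 193 FPKM untreated. Rilpl2, of lysosome and cilium traffic, was at 9.86 and 9.12 FPKM after IL4 and TGFb1, against 20.9, 32.3, 138 and 109.8 FPKM after TNFa, IL1b, MALP2 and CpG, with 85.96 FPKM untreated, so TNFa and IL1b were below untreated as well. Ptafr, the receptor of platelet-activating factor, was at 6.34 and 20.99 FPKM after IL4 and TGFb1, against 166, 103, 77.7 and 95.2 FPKM after TNFa, IL1b, MALP2 and CpG, and all 6 were below the 186 FPKM of untreated cells. Tnfaip2, Traf1 and Saa3 were the 3 that met both conditions. Of the 13 higher genes with untreated status OK, IL4 and TGFb1 were both at least 2-fold above untreated in 8 (against 3.99%), the 4 were all at least 2-fold below it in 3 (against 5.2%), and 2 met neither condition. Without IL1b the share of higher genes at least 2-fold above untreated after IL4 and TGFb1 was 32.9%, against 61.5% with all libraries.

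**Figure D4:**
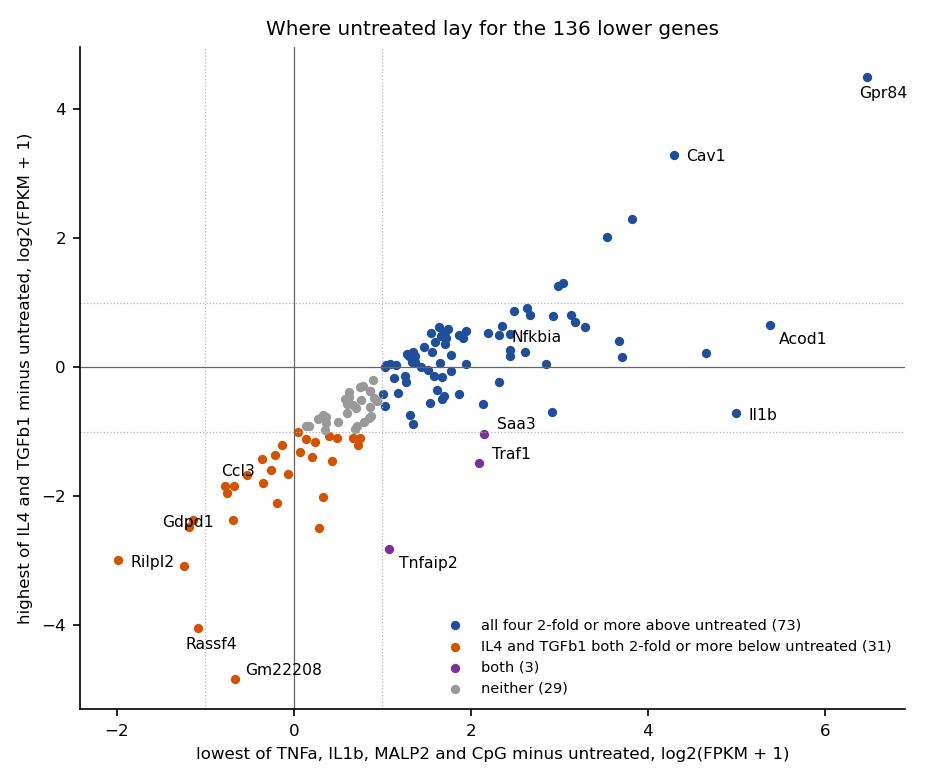
For each of the 136 lower genes, the lowest of the 4 NF-kB stimuli (x axis) and the highest of IL4 and TGFb1 (y axis) are given as log2(FPKM + 1) minus untreated. Genes right of 1 were at least 2-fold above untreated after all 4, genes under -1 were at least 2-fold below untreated after both IL4 and TGFb1, and Tnfaip2, Traf1 and Saa3 met both conditions.

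Relative to untreated, the 136 lower genes had a median log2 difference of -0.69 after IL4 and -0.45 after TGFb1, against 1.83 after TNFa, 1.32 after IL1b, 1.93 after MALP2 and 2.25 after CpG. In the authors' deposited table, 43 of the 136 were called lower than untreated after IL4 (against 9.58% of all compared genes) and 34 after TGFb1 (against 8.72%), at a q-value below 0.05. Called higher than untreated in the authors' deposited table were 96 after TNFa (against 7.96%), 83 after IL1b (7.33%), 97 after MALP2 (7.28%) and 101 after CpG (7.66%). IFNg, which the choice of members did not use, had a median of 1.43, and 80 of the 136 were called higher in the authors' deposited table (against 7.86%). IFNg lay at or above the lowest of the 4 in 76 of the 136 lower genes, in the gap in 53 and at or below the IL4 and TGFb1 side in 7. Over all 2604 lower genes with no overlap, IFNg was at the side of the 4 in 64%. In the 14 higher genes it was at the side of the 4 in 6, in the gap in 6 and at the IL4 and TGFb1 side in 2, against 74.3% at the side of the 4 over the higher genes with no overlap and IFNg status OK.

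**Figure D5:**
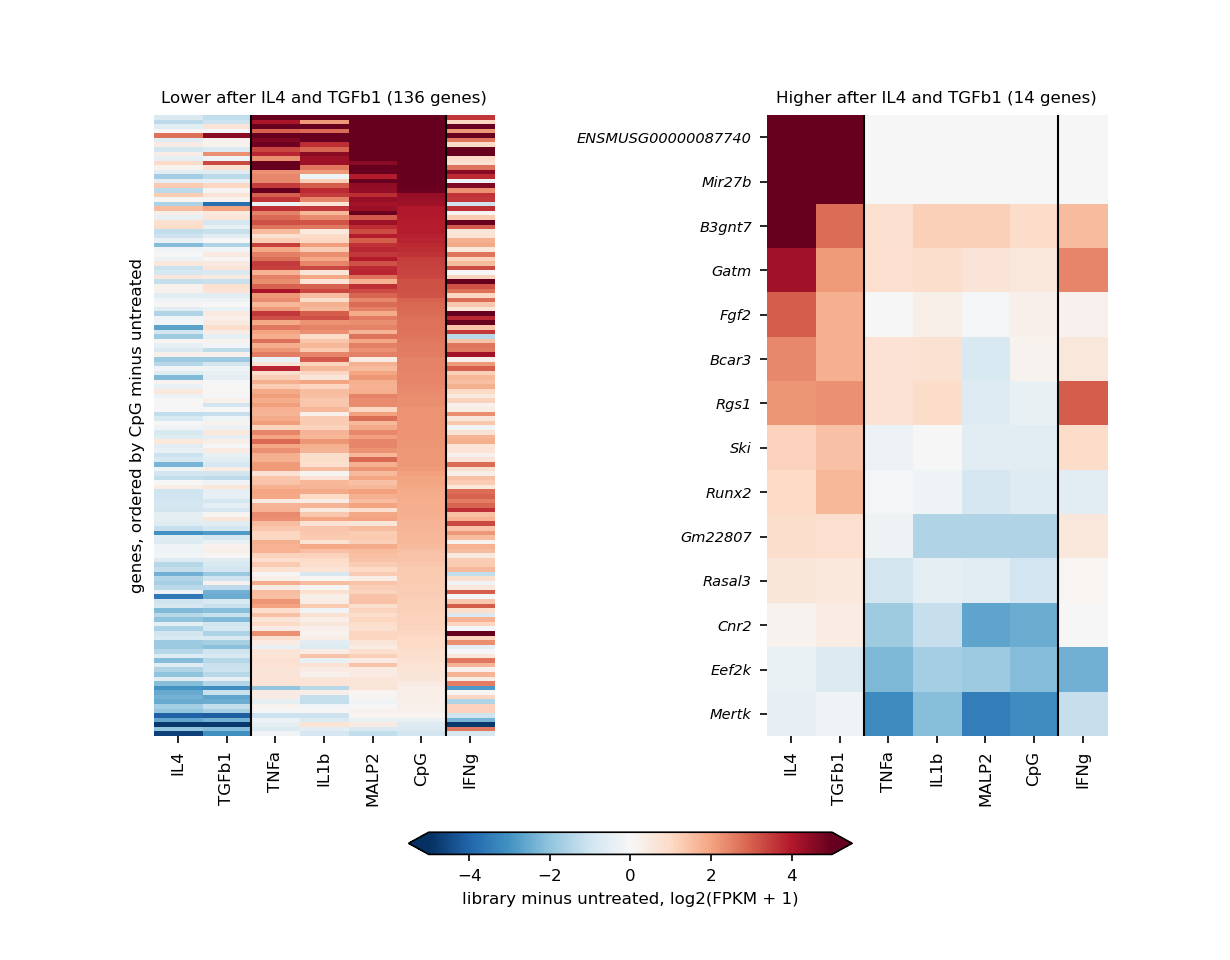
Colours give log2(FPKM + 1) minus untreated in each stimulated library for the 136 lower genes (left) and the 14 higher genes (right), clipped at 5 in size. In the left panel most cells of TNFa, IL1b, MALP2 and CpG are red (medians 1.32 to 2.25), and so are most of IFNg (median 1.43). Those of IL4 and TGFb1 are mostly white to blue (medians -0.69 and -0.45).

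Within the sides, the libraries were not alike. The libraries compared here also chose the members, so the shares and ranges below are descriptions with nothing read from the background beside them. IL1b was the lowest of the 4 in 88 of the 136 lower genes and so set the gap there, and CpG was the highest in 69. Both Toll-like receptor ligands exceeded both TNFa and IL1b in 76 of the 136 (55.9%, against 22.5% of all compared genes). The median range within the 4 was 1.204 on the log2 scale in the lower genes, against 0.39 over all compared genes, and in 54 of the 136 the 4 lay within 2-fold. Within the 4, TNFa was the highest in Clec4e, Ptafr, Vcam1 and Gpr132, an acid-sensing receptor. Gpr132 was at 5.04 and 3.81 FPKM after IL4 and TGFb1, against 40.99, 25.1, 17.9 and 22.96 FPKM after TNFa, IL1b, MALP2 and CpG. TGFb1 was above IL4 in 96 of the 136 (70.6%, against 51.7% of all compared genes). The pair differed by at least 2-fold in 24 lower genes, with TGFb1 higher in 19 and IL4 in 5. Cav1, the caveolin gene, was at 2.58 and 16.9 FPKM after IL4 and TGFb1, against 81.3, 34.8, 41.1 and 106 FPKM after TNFa, IL1b, MALP2 and CpG. Ralgds, an exchange factor for RAL, was an instance of the opposite order, at 26.9 and 5.47 FPKM after IL4 and TGFb1, against 99.7, 57.8, 72.3 and 80.3 FPKM after TNFa, IL1b, MALP2 and CpG.

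At the limit of the 2-fold gap, Cav1 (2-fold) and C9orf72 (2.02-fold) were the nearest lower genes inside it. Nos2, the inducible nitric oxide synthase, and the kinase gene Src lay just outside, with gaps of 1.999 and 1.98-fold. Nos2 was at 0.0301 and 0.0236 FPKM after IL4 and TGFb1, against 1.09, 1.06, 41.7 and 123 FPKM after TNFa, IL1b, MALP2 and CpG, so with near 1 FPKM after TNFa and IL1b its gap turns on the 1 FPKM added to each level. Of the higher genes, Rasal3 and Eef2k lay just inside (both 2.01-fold) and Cebpa and Epha2 just outside (1.93 and 1.92-fold). With no size asked, Tmem168 and Gm10275 (lower) and Erf and Prickle3 (higher) were just inside, with gaps of 1.00-fold. Eral1 and Rasa4 (lower) and Nostrin and Mfsd11 (higher) were just outside. All but 136 of the 2604 lower and all but 14 of the 2704 higher genes had gaps under 2-fold.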

How the data were processed

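Poly(A) RNA of 8 mouse macrophage cultures was sequenced, 1 library each. The submitters' processing notes name the tools TopHat 1.3.1, Cufflinks 1.2.1 and Cuffdiff 1.2.1 and the genome build mm9. Whether counting used strand is not stated there, which leaves overlapping and antisense genes uncertain. The authors deposited FPKM per gene with confidence bounds and a status, each stimulus paired with untreated in its own table, and per the file headers a q-value for each such pair; the level of the bounds is not stated there.

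The tables were joined by the factor between their untreated columns (0.981 to 1.04), FPKM of at least 1 in 1 of 6 libraries was required, and levels were compared as log2(FPKM + 1) in Python 3.11.15 with pandas 2.3.3 and numpy 2.4.6. The steps were tested on simulated data. With 1 library per stimulus there was no test, and the smallest one-sided p of 2 libraries against 4 would be 0.0667. The members and lists were chosen with earlier results of these data known. Named were the 12 widest gaps with a symbol in each direction, the marker genes, all NF-kB and IkB genes, the receptors of the 6 agents, the 3 widest members of each other list in each direction and the genes at each limit; any further gene was picked after its values were seen, and not every gene under the rule is described. Promoters are RefSeq's (GRCm38.p6), 250 bases upstream; the planned ones without a match are left out except that of Tnfaip2. Alternatives changed the pseudocount, floor, joining, centring, bounds, gap, gene set and libraries.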

Additional observations from a re-analysis of the deposited data

Results flagged for a closer look

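Tnfaip2, Traf1 and Saa3 were the only lower genes past 2-fold on both sides of untreated. In each, IL4 and TGFb1 both lay at least 2-fold below untreated while TNFa, IL1b, MALP2 and CpG all lay at least 2-fold above it, so the sides lay on opposite sides of the same untreated library. The limit does not set them apart as a class. Saa3 passed it narrowly, with a log2 difference of -1.03 after TGFb1. Relb came near it, at -1.17 and -0.89 after IL4 and TGFb1 and 1.35 or more after the 4. So did Fas, at -0.74 and -1.27, and 1.32 or more after the 4. The gap between the sides on the log2(FPKM + 1) scale was -3.90 for Tnfaip2, -3.58 for Traf1 and -3.18 for Saa3. As ratios of FPKM + 1 to untreated, Tnfaip2 was at 0.121 and 0.141 after IL4 and TGFb1 and between 2.11 and 3.20 after the 4. Tnfaip2 was higher still after IFNg, at 1100 FPKM, while IFNg lay below all 4 in Traf1 and Saa3. On the same FPKM + 1 scale Traf1 was at 0.220 and 0.357 after IL4 and TGFb1, against 4.28 to 13.2 after the 4. The FPKM + 1 ratios of Saa3 were 0.409 and 0.489 after IL4 and TGFb1, against 4.44 to 489 after the 4. For Saa3 the authors' Cuffdiff test called neither IL4 (q-value 0.125) nor TGFb1 (q-value 0.213) different from untreated. Their bounds for IL4 (1.07 to 6.05 FPKM) and TGFb1 (1.65 to 7.26 FPKM) overlapped those of untreated (3.38 to 16.9 FPKM). The difference was not tested, because each stimulus has 1 library.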

How the results depend on the processing

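The main counts were 136 lower and 14 higher genes with a 2-fold gap and 2604 and 2704 without overlap. A pseudocount of 0.1 gave 215 lower and 47 higher genes. A gap of 1.5-fold gave 320 and 115, and a gap of 4-fold gave 29 and 2. Where the authors' bounds had not to overlap, 91 lower and 7 higher genes were left of the 2-fold sets, and 134 and 30 of those without overlap. Leaving out 1 library gave 143 to 344 lower and 17 to 364 higher genes with a 2-fold gap, and 2716 to 4074 and 2866 to 4567 without overlap. The widest moves came without IL4 (209 and 156, 4057 and 4478), without TGFb1 (344 and 364, 4074 and 4567) and without IL1b (304 and 71). Fewer libraries make non-overlap easier to meet.

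All 4 stimuli were at least 2-fold above untreated in 55.9% of the lower genes, in 42.7% to 61.5% with 1 library left out, in 38.1% at a gap of 1.5-fold and in 86.2% at a gap of 4-fold. IL4 and TGFb1 were at least 2-fold above untreated in 61.5% of the higher genes, in 32.9% (without IL1b) to 68.8% (without CpG) with 1 library left out. That share was 37.0% with a pseudocount of 0.1, 29.8% at a gap of 1.5-fold and 100% at a gap of 4-fold, where it rests on 1 gene, ENSMUSG00000087740, listed at 0 in the other libraries. IFNg was at the side of the 4 in 54.7% of all 150 genes, and in 47.3% to 64.9% with 1 library left out. No joining factor gave 132 and 14 genes, keeping 131 of the 136 and 14 of the 14, but 2163 lower and 3206 higher genes without overlap; centring gave 134 and 14. Restricting to protein-coding genes, chosen after the data were seen, gave 131 and 11. For 104 named genes the gap was recomputed under the pseudocount, joining, centring, bounds and left-out libraries only, and 0 reversed. Where the sides do not overlap, changing the pseudocount or leaving out a library cannot reverse the order. For such genes and settings that result was fixed in advance. Between the authors' bounds 64 of the 104 overlapped, and 37 no longer passed 2-fold. No paired analysis was possible because each stimulus has 1 library. With depth unknown, levels near 1 FPKM are the least certain.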
